A study of Homo sapiens with 10 samples.

Results

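The peaks described here lie outside the assembled chromosomes of 5 human colon cancer cell lines, on contigs that the genome build hg19 leaves unplaced or ties to a chromosome without a position, and on the mitochondrial genome. Members were taken by contig name alone: every peak not on chromosomes 1 to 22, X or Y and not on an alternative haplotype contig. They numbered 354 of 38106 peaks. By list, HCT116 had 78 of 9418, HT29 67 of 8941, HCT15 12 of 917, COLO320DM 81 of 8832 and COLO205 116 of 9998. The lines were profiled by MeRIP-seq, in which an antibody to N6-methyladenosine (m6A) pulls down fragmented total RNA (the IP) and a saved portion serves as input. HCT116, HT29 and HCT15 are labelled colorectum, COLO320DM and COLO205 colon, and the labels give the same culture medium and no treatment for any of them. Each line had 1 IP and 1 input library, so every difference between lines is a difference between single libraries. The lists hold no expression levels, so the identity of the lines was not checked against marker genes.

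Ribosomal RNA makes up most of total RNA and comes from a long unit repeated in tandem on the short arms of the acrocentric chromosomes, which hg19 does not assemble. Contig GL000220 carries ribosomal DNA, so reads from any copy of the array can be placed on it. Mature human rRNA is known to carry m6A at a single adenosine of the small subunit, set by METTL5, and at a single adenosine of the large subunit, set by ZCCHC4. Mitochondrial RNA is copied from both strands as long transcripts that are cut into messenger, ribosomal and transfer RNAs, and it is also abundant. The other unplaced contigs are pieces of sequence, many of them repeated, that could not be ordered. No annotation or sequence of hg19 was used here, so no gene, rRNA or repeat family was assigned to a position and no sequence is shown. The peaks carry no strand.

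Depth was recovered from the lists themselves and counts reads as the caller used them. In units of 1 M (mega) reads, the estimated IP depth was 1.38 for HCT116, 2.13 for HT29, 5.02 for HCT15, 1.47 for COLO320DM and 2.99 for COLO205, against inputs of 2.24, 3.10, 1.61, 2.28 and 5.41 M in the same order. The IP was thus deeper than its input in HCT15 alone, by 3.11 times. In the other lists the IP had 0.616 (HCT116), 0.685 (HT29), 0.647 (COLO320DM) and 0.552 (COLO205) times the reads of its input. The authors' fold divides IP by input after scaling to equal depth, and it is the authors' own value for each peak. IP reads below are unscaled counts over a peak's summit, and local input is the number of input fragments that the caller set against them. The control of each list was taken to be the line's own input, which the sources used here do not state.

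**Figure D1:**
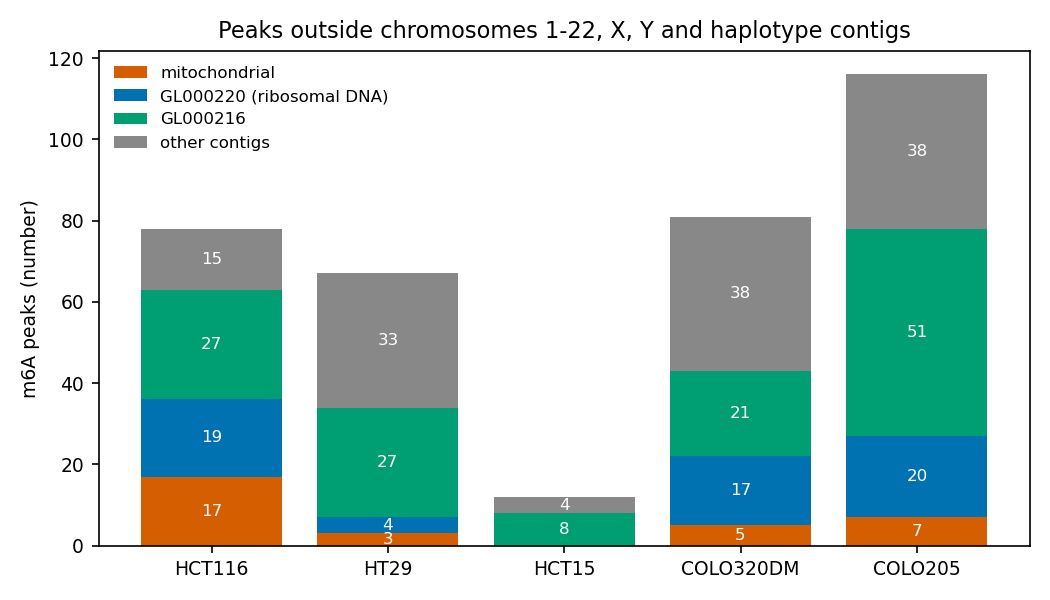
Number of m6A peaks on the contigs in each cell line (x axis: line, y axis: peaks), split by contig, with 1 library per line. GL000216 is present in all 5 columns with 8 to 51 peaks, while HCT15 lacks mitochondrial and GL000220 peaks.

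These contigs took about 1 peak in 100. Their share was 0.828% of the HCT116 list (exact 95% interval 0.655% to 1.03%), 0.749% of HT29 (0.581% to 0.951%), 1.31% of HCT15 (0.678% to 2.27%), 0.917% of COLO320DM (0.729% to 1.14%) and 1.16% of COLO205 (0.960% to 1.39%). The HCT15 interval overlapped all of the others. Peaks fell on 34 contigs, of which 24 are unplaced, 9 are tied to a chromosome and 1 is mitochondrial. GL000216 led with 134 peaks, followed by GL000220 with 60 and the mitochondrial genome with 32. The remaining 31 contigs shared 128 peaks, and 11 contigs had peaks in 1 list only. Intervals on shares cover counting error only.

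Contig peaks overlapped another list in 83.3% of cases for HCT116 (73.2% to 90.8%), 50.7% for HT29 (38.2% to 63.2%), 83.3% for HCT15 (51.6% to 97.9%), 55.6% for COLO320DM (44.1% to 66.6%) and 60.3% for COLO205 (50.8% to 69.3%). Over all peaks of each list the shares were 61.5% for HCT116, 63.6% for HT29, 94.2% for HCT15, 52.7% for COLO320DM and 65.1% for COLO205. The interval lay above the share of its list in HCT116 and below it in HT29, and it held that share in the other lists. This changed without GL000220 and the mitochondrial genome, an alternative chosen after seeing the data. The share was then 71.4% for HCT116 (55.4% to 84.3%) and 51.7% for HT29 (38.4% to 64.8%), and these intervals held the shares of their lists. COLO320DM then had 39.0% (26.5% to 52.6%) and COLO205 52.8% (41.9% to 63.5%), both below their lists. Overlap was counted from 1 shared nt. The intervals treat peaks as independent. In HCT116, 16 contig peaks lie in pairs on GL000220, described below, so the interval over all its contig peaks may be too narrow.

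The ribosomal contig held the same series of peaks at a pair of places. GL000220 held 19 peaks for HCT116, 4 for HT29, 0 for HCT15, 17 for COLO320DM and 20 for COLO205. In HCT116, COLO320DM and COLO205 nearly all of them lay in 2 short stretches, from 112376 to 118307 and from 156343 to 160728, and the second stretch repeated the first. A peak of the first stretch had its partner in the second at a distance of 43959 to 44011 nt between starts, with a median of 43972 nt. There were 8 such pairs in HCT116, 8 in COLO320DM and 9 in COLO205, counted with summits within 100 nt of 1 spacing, and 23 of the 25 pairs also met a limit of 25 nt. Outside the pairs were 3 HCT116 peaks, 1 COLO320DM peak and 2 COLO205 peaks. One of these in each list started between 118064 and 118103 and had no partner. Whether the contig reaches far enough to hold a partner at the spacing was not checked.

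**Figure D2:**
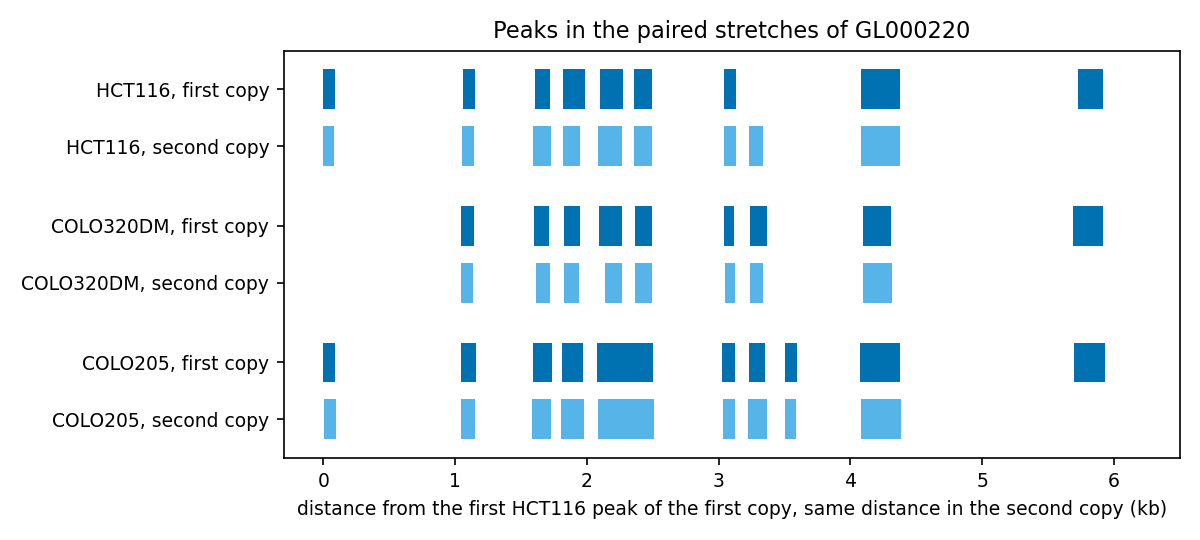
Peaks in the paired stretches of GL000220 in HCT116, COLO320DM and COLO205 (x axis: distance in kb from the first HCT116 peak, with the second stretch set back by 43972 nt; bars span each peak). Partners line up in all 3 lists, and the last peak of the first stretch has none in the second. Whether the contig reaches far enough to hold one was not checked.

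Partner peaks had similar reads, but nearly all of them stood near the highest count of their library, described next, which leaves partners little room to differ. In HCT116 the pair at 112376 to 112461 and 156343 to 156431 had 150 and 150 IP reads. The pair at 114473 to 114647 and 158432 to 158615 had 147 and 146. In COLO320DM the pair at 113423 to 113517 and 157392 to 157481 had 146 and 146. The widest gap within a pair was 2 reads in HCT116, 2 in COLO320DM and 6 in COLO205. How reads that match more than 1 place were handled is not given in the sources used here, and whether partner peaks share reads was not tested.

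Counts over these peaks stopped at 1 number in each library. The highest IP count was 150 for HCT116, 146 for COLO320DM and 150 for COLO205, which equals 2 times the shortest peak of each list (75, 73 and 75 nt). On GL000220, 8 HCT116 peaks, 7 COLO320DM peaks and 4 COLO205 peaks stood exactly at that number. Local input stood at the same number, within 0.01 fragments, under 14, 14 and 13 of the GL000220 peaks in the same lists. IP counts at 95% or more of the number were found at 18 of 19 GL000220 peaks in HCT116, 17 of 17 in COLO320DM and 15 of 20 in COLO205. Over whole lists such counts were rare, with 0.202% of HCT116 peaks, 0.204% of COLO320DM peaks, 0.190% of COLO205 peaks and 0% in HT29 and HCT15. Only 1 peak with such a count lay on chromosomes 1 to 22, X and Y, in COLO320DM. Such counts also stood at 1 HCT116 peak and 4 COLO205 peaks on the mitochondrial genome. Whether duplicate reads were removed is not stated in the sources used here, and its part in these counts was not tested.

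The fold on GL000220 was close to the depth ratio of the libraries. Where IP and input stand at the same highest number, the authors' fold is 1.62 for HCT116, 1.54 for COLO320DM and 1.80 for COLO205 from depth alone. The median fold of GL000220 peaks was 1.62, 1.53 and 1.79 in these lists. In HCT116 a fold of 1.62 recurred identically at 6 peaks, and in COLO320DM a fold of 1.54 recurred at 7 peaks. Unscaled IP reads did not exceed local input at 16 of 19 GL000220 peaks in HCT116, 16 of 17 in COLO320DM and 15 of 20 in COLO205. Over the whole lists this held for 0.170% of HCT116 peaks, 0.181% of COLO320DM peaks, 0.180% of COLO205 peaks and 0% of HT29 and HCT15 peaks. All such peaks of HCT116 and COLO320DM were on GL000220, and COLO205 had 3 more, on the chromosomes. On GL000220, IP reads were above local input at 3 HCT116 peaks, 1 COLO320DM peak and 5 COLO205 peaks. Where both counts stand at the same highest number, they cannot show which library held more fragments.

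**Figure D3:**
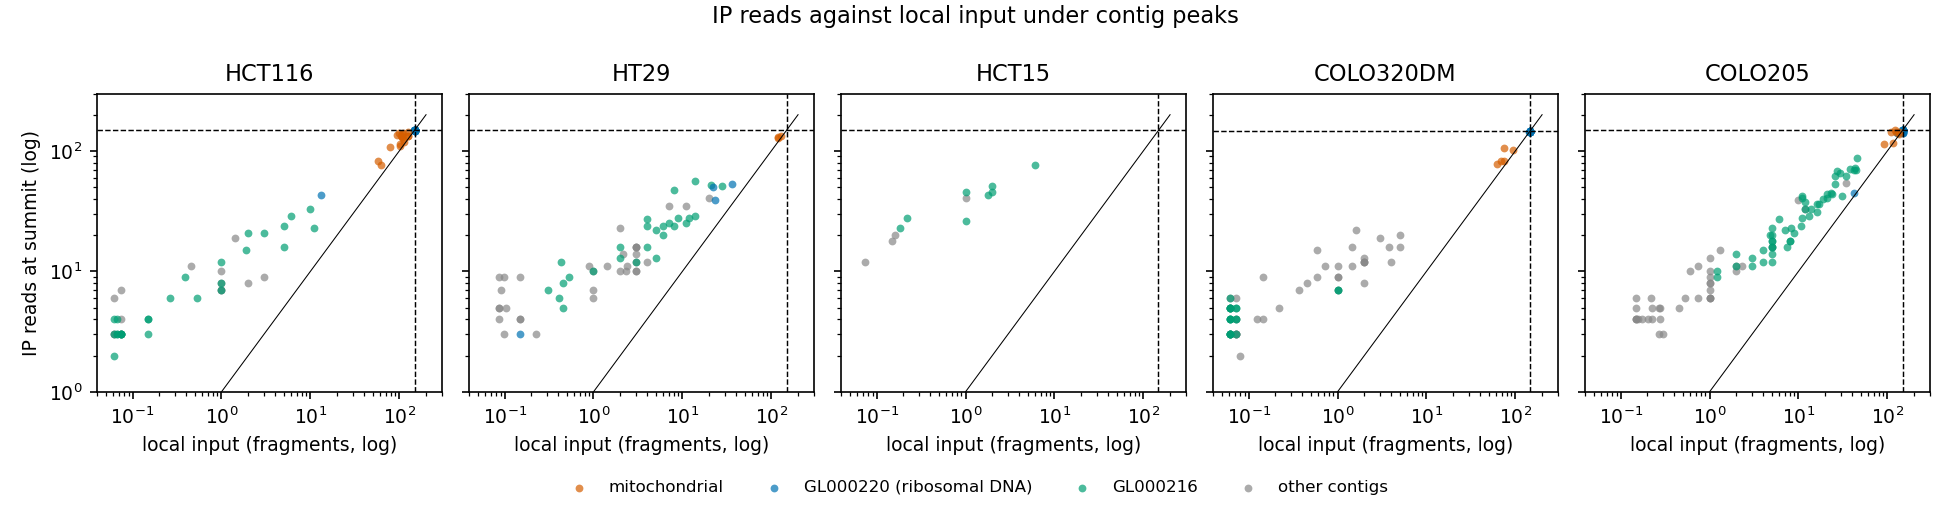
IP reads at the summit (y axis, log) against local input fragments (x axis, log) for each contig peak, 1 panel per line, with dashed lines at 2 times the shortest peak and a solid line where both are equal. GL000220 peaks of HCT116, COLO320DM and COLO205 crowd where the dashed lines cross, and mitochondrial peaks sit just below and to the left.

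HT29 and HCT15 did not share the paired peaks. The 4 HT29 peaks on GL000220 started at 84229, 127429, 127969 and 129130 and overlapped none of the other lists. Their folds were 3.63, 3.19, 2.10 and 2.34, over 3, 50, 53 and 39 IP reads and 0.150, 21.9, 36.0 and 23.5 input fragments. Equal highest counts in IP and input would give a fold of 1.45 and a −log10 p of 5.29 in HT29, above the lowest −log10 p of that list, 4.52. In HCT15 equal counts would give a fold of 0.326. The lines without the paired peaks thus had the 2 highest ratios of IP to input depth, and line and depth ratio cannot be told apart here.

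A few GL000220 peaks away from the paired stretches had other values. HCT116 had its strongest peak of the contig at 123792 to 123965, with a fold of 4.89, a −log10 p of 18.1, 43 IP reads and 13 input fragments. COLO205 had a weak one at 126789 to 126878, with a fold of 1.90 over 45 IP reads and 42.0 input fragments. Neither had an overlapping peak in another list. Neither had a partner at the spacing, and whether the contig reaches that far was not checked. The strongest GL000220 peak of COLO205 was a paired one, at 112376 to 112467, with a fold of 1.98, 142 IP reads and 129 input fragments. It overlapped an HCT116 peak with a fold of 1.65. The strongest of COLO320DM, also paired, at 158174 to 158291, had a fold of 1.56, and that of HT29 was at 127429 to 127818.

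Mitochondrial peaks also stood over high input, with IP above input, which the caller's cutoff partly requires at these counts. There were 17 for HCT116, 3 for HT29, 0 for HCT15, 5 for COLO320DM and 7 for COLO205. Unscaled IP reads exceeded local input at all 32 of them, by a median of 1.23 times in HCT116, 1.09 times in HT29, 1.19 times in COLO320DM and 1.15 times in COLO205. IP reads ran from 76 to 145 for HCT116, from 129 to 134 for HT29, from 78 to 105 for COLO320DM and from 114 to 149 for COLO205. Local input ran from 57.5 to 127 fragments for HCT116, from 119 to 128 for HT29, from 62.6 to 94.0 for COLO320DM and from 92.6 to 136 for COLO205. The authors' folds were low, with medians of 1.99, 1.58, 1.82 and 2.07, but lay above the fold of equal highest counts in every list that had mitochondrial peaks. Both comparisons are partly built in, because a listed peak must pass the caller's cutoff. The lowest −log10 p was 4.52 for HCT116, 4.52 for HT29, 4.56 for COLO320DM and 4.48 for COLO205. At lower counts the cutoff asks for a larger fold, and the lowest fold it allows on the mitochondrial genome was not computed.

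Mitochondrial peaks were wide in HCT116 and COLO205. Their median width was 400 nt in HCT116 and 938 nt in COLO205, against 91 nt in HT29 and 144 nt in COLO320DM. The 17 HCT116 peaks covered 9868 nt between positions 172 and 16267, and the 7 COLO205 peaks covered 14977 nt between 182 and 16413. The widest COLO205 peak reached from 9427 to 16413, with a fold of 2.34 and the highest −log10 p of the contig in that list, 19.5. In HCT116 the highest was at 10549 to 11392, with a fold of 2.33, 136 IP reads and 94.0 input fragments. COLO320DM had its strongest at 13969 to 14179, with a fold of 2.17 over 105 IP reads and 74.0 input fragments, and HT29 at 8453 to 8530, with a fold of 1.58. In COLO205 the peaks ran through most of the contig, so an overlap with that list places no narrow site.

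All 3 HT29 peaks and 4 of the 5 COLO320DM peaks on the mitochondrial genome lay in 2 wide merged regions, of 1717 and 6987 nt. The fifth, at 5289 to 5415 in COLO320DM, had 82 IP reads over 74.0 input fragments and overlapped HCT116 and COLO205 peaks. The first region held by 4 lists ran from 7621 to 9337, with largest folds of 2.08 for HCT116, 1.58 for HT29, 1.90 for COLO320DM and 2.07 for COLO205. The second ran from 9427 to 16413, with 2.33, 1.58, 2.17 and 2.34. Within the first, HT29 peaked at 8453 to 8530 and COLO320DM at 8458 to 8577. Within the second, HT29 peaked at 14035 to 14125 and COLO320DM at 13969 to 14179. HCT15 had no peak on the contig.

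**Figure D4:**
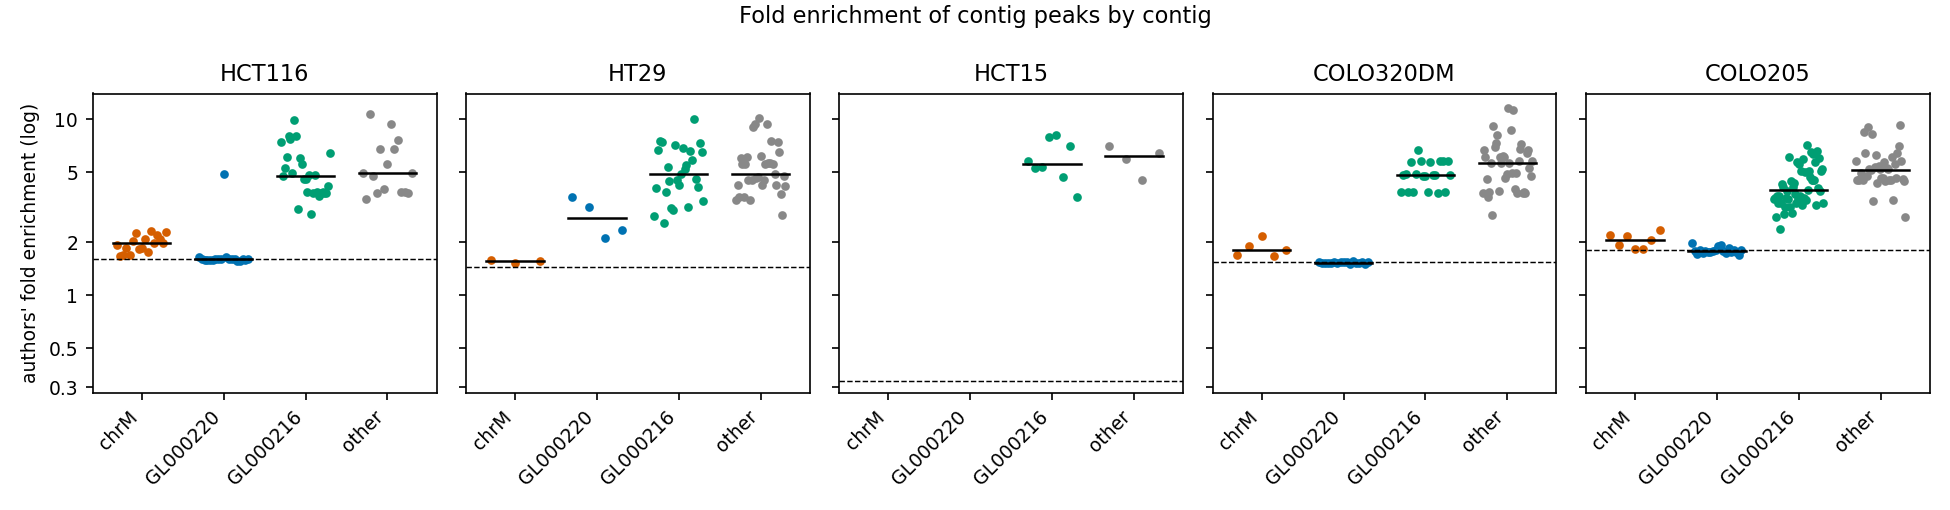
The authors' fold enrichment (y axis, log) of each contig peak by contig and line, with medians as short solid lines and, dashed, the fold that equal highest counts in IP and input would give. Medians on GL000220 are 1.53 to 1.79 in HCT116, COLO320DM and COLO205, beside the dashed line, and those on GL000216 are 3.99 to 5.57.

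GL000216, GL000214 and GL000225 were the contigs with peaks in all 5 lists, and GL000216 held the most. It had 27 peaks for HCT116, 27 for HT29, 8 for HCT15, 21 for COLO320DM and 51 for COLO205, all between positions 863 and 82943. The median fold was 4.75 for HCT116, 4.89 for HT29, 5.57 for HCT15, 4.81 for COLO320DM and 3.99 for COLO205. COLO205 thus had the most peaks and the lowest median fold. Peaks were short, with median widths of 79, 81, 120.5, 82 and 99 nt in the same order.

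The lists differed in how much input lay under GL000216. A peak is called input-covered here when its local input is at least 1 fragment. Input covered 51 of 51 peaks for COLO205, 21 of 27 for HT29, 6 of 8 for HCT15, 11 of 27 for HCT116 and 2 of 21 for COLO320DM. Over whole lists input covered 51.8% of COLO205 peaks, 39.0% of HT29 peaks, 20.6% of HCT15 peaks, 58.1% of those in HCT116 and 61.8% of those in COLO320DM. COLO320DM thus had the highest share over its list and the lowest on GL000216. The exact 95% interval on GL000216 was 93.0% to 100% for COLO205, 57.7% to 91.4% for HT29, 34.9% to 96.8% for HCT15, 22.4% to 61.2% for HCT116 and 1.17% to 30.4% for COLO320DM. These inputs differ in depth, but those of HCT116 and COLO320DM are close, at 2.24 and 2.28 M reads.

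Median local input on GL000216 gave the same order of lists, which is partly built in because input coverage is defined from local input. Median IP reads gave that order too, apart from the deeper HCT15 IP. IP reads had a median of 28 for COLO205 (9 to 87), 22 for HT29 (5 to 56), 6 for HCT116 (2 to 33) and 4 for COLO320DM (3 to 7), and of 44.5 unscaled reads for HCT15 (23 to 76). Local input had a median of 11.0 fragments for COLO205, 5.00 for HT29, 1.39 for HCT15, 0.263 for HCT116 and 0.0616 for COLO320DM. The COLO320DM median is the lowest background of that list, read as the genome mean, and 14 of its 21 peaks stood there, against 8.99% of all COLO320DM peaks. In HCT116 3 of 27 GL000216 peaks did, and in HT29, HCT15 and COLO205 none, against list shares of 12.7% (HCT116), 19.8% (HT29), 32.5% (HCT15) and 12.2% (COLO205). Under 5 IP reads supported 12 of the 21 COLO320DM peaks and 13 of the 27 HCT116 peaks, against 0 in the other lists. Over all peaks the share under 5 reads was 25.1% (HCT116), 17.0% (HT29), 0% (HCT15), 20.6% (COLO320DM) and 13.7% (COLO205). These COLO320DM peaks rest on very few reads.

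**Figure D5:**
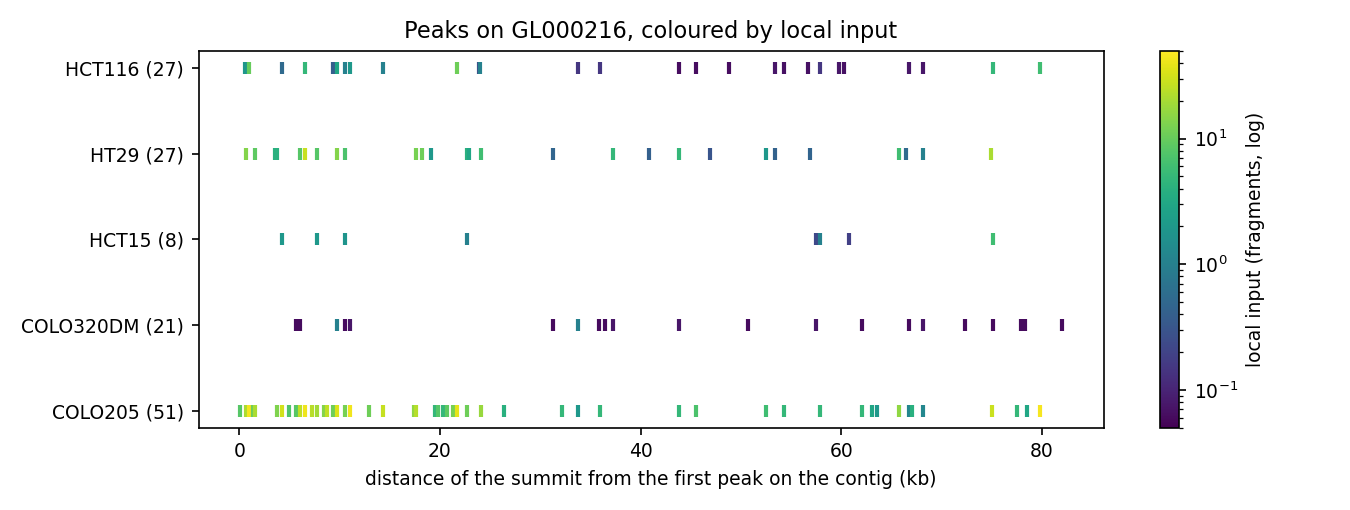
Peaks on GL000216 in each line (x axis: distance of the summit in kb from the first peak on the contig; number of peaks in brackets), coloured by local input fragments on a log scale. COLO205 peaks are dense at the left and lie over 1.2 to 46.0 fragments, and most COLO320DM peaks are dark, at 0.0616 fragments.

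Peaks on GL000216 met across lines in part. COLO205 held 21 of the 27 HCT116 peaks, 16 of the 27 HT29 peaks, 6 of the 8 HCT15 peaks and 12 of the 21 COLO320DM peaks. As shares these were 77.8% (HCT116), 59.3% (HT29), 75.0% (HCT15) and 57.1% (COLO320DM), and over all peaks of each list COLO205 held 41.4%, 52.1%, 78.5% and 33.8% in the same order. HT29 and HCT116 met in 9 of 27 peaks of each list, 33.3%, against 37.2% of all HT29 peaks and 35.7% of all HCT116 peaks. The contig formed 76 merged regions, of which 42 were in 1 list, 3 in 4 lists and 2 in all 5. Merged regions were counted on the contigs only, so these counts have no whole-list value beside them. A list with more peaks is overlapped more easily, and COLO205 covered 6930 nt of the contig, against 1126 nt in HCT15 and 2089 to 3129 nt in the other lists.

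The 2 regions common to all 5 lists showed the same spread of depth. The region from 75652 to 76170 had 16 IP reads for HCT116, 52 for HT29, 76 unscaled reads for HCT15, 5 for COLO320DM and 66 for COLO205. Its local input was 5, 21, 6, 0.0616 and 29 fragments, and its fold 4.17, 3.44, 3.63, 5.77 and 3.94. COLO320DM therefore had the highest fold there with the fewest reads. The region from 11216 to 11461 had 7, 25, 43, 3 and 33 IP reads and folds of 4.95, 4.48, 5.34, 3.85 and 4.46 in the same order. Its COLO320DM peak also stood at the lowest background.

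Regions in 4 lists lay at 10433 to 10737, 44628 to 44762 and 68970 to 69105, and HCT15 was the missing list in each. At 10433 to 10737 the folds were 7.73 for HCT116, 5.38 for HT29, 4.86 for COLO320DM and 3.19 for COLO205, over 21, 56, 7 and 62 IP reads. At 44628 to 44762 they were 3.85, 3.16, 4.77 and 5.05, over 3, 13, 4 and 18 reads. At 68970 to 69105 they were 3.82, 6.53, 3.82 and 6.0, over 3, 10, 3 and 9 reads.

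The strongest GL000216 peaks were different positions in each line. HT29 had the highest −log10 p of all contig peaks, 27.9, at 6840 to 6948, where 47 IP reads stood over 8 input fragments (fold 7.40). Its next was at 10465 to 10651, with a fold of 5.38. COLO205 had its 3 highest at 15067 to 15224 (fold 4.34, 68 IP reads), 10135 to 10233 (fold 6.08, 42 reads) and 80640 to 80719 (fold 3.33, 87 reads). HCT116 had a fold of 9.86 at 11808 to 11904, with 21 IP reads over 2 input fragments. HCT15 had a fold of 8.19 at 58173 to 58324, with 28 unscaled reads, and 7.90 at 23385 to 23584, with 46. The strongest in COLO320DM, at 36704 to 36801, had a fold of 6.73 and 6 reads over the lowest background. HT29 also had a fold of 10.05 at 54193 to 54273, with 12 reads over 0.428 input fragments.

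The other 31 contigs carried scattered peaks, 15 for HCT116, 33 for HT29, 4 for HCT15, 38 for COLO320DM and 38 for COLO205. Their median folds were 4.95, 4.91, 6.15, 5.67 and 5.18, and their median IP reads 7, 10, 19 (unscaled), 8.5 and 6. Of these peaks, 8 of 15 for HCT116, 13 of 33 for HT29, 3 of 4 for HCT15, 9 of 38 for COLO320DM and 16 of 38 for COLO205 overlapped another list. As shares these were 53.3%, 39.4%, 75.0%, 23.7% and 42.1%, against 61.5%, 63.6%, 94.2%, 52.7% and 65.1% over all peaks of the same lists. The share was lower than that of the whole list in all 5, and for HCT116 and HCT15 the exact 95% interval (26.6% to 78.7% and 19.4% to 99.4%) held the list's share.

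HT29 had 5 or more peaks on GL000224 and on GL000214. GL000224 held 9 HT29 peaks between 4937 and 18838, input-covered in all 9, with folds of 3.47 to 6.07 and 10 to 16 IP reads. The 2 COLO205 peaks on that contig lay elsewhere, between 27797 and 34118, over less than 1 input fragment. GL000214 held 8 HT29 peaks with folds of 4.22 to 7.54, against 1 for HCT116, 1 for HCT15, 2 for COLO320DM and 2 for COLO205. On GL000214, COLO320DM had its highest contig fold, 11.6, at 64358 to 64445, with 15 IP reads, where HT29 had a fold of 6.21. COLO205 had its highest there too, 9.25, at 112503 to 112662, overlapped by HT29 and HCT15.

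COLO320DM had 2 contigs with 5 peaks. GL000194, tied to chromosome 4, had 5 in COLO320DM and 2 in COLO205. The peak at 68172 to 68341 reached a fold of 11.3 with 22 IP reads over 1.61 input fragments in COLO320DM, and the COLO205 peak inside it a fold of 4.51. GL000219 held 5 peaks for COLO320DM, 4 for HCT116, 2 for HT29 and 3 for COLO205. The region from 50913 to 51436 was in these 4 lists, with folds of 3.82 (3 IP reads) for HCT116, 10.1 (23 reads) for HT29 and 6.07 (9 reads) for COLO320DM. COLO205 had a pair of peaks there, with folds of 4.46 (33 reads) and 5.25 (11 reads). At 63142 to 63245 HCT116 reached a fold of 9.40 with 11 reads.

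A pair of further regions was in 4 lists. On GL000242, 26053 to 26320 had folds of 10.7 for HCT116, 9.07 for HT29, 5.67 for COLO320DM and 6.44 for COLO205, over 19, 9, 12 and 9 IP reads. The HCT116 peak there was the strongest contig peak of its list by fold and by −log10 p, 19.9. On GL000193, tied to chromosome 4, 68270 to 68696 had folds of 6.74 for HCT116, 5.56 for HT29, 7.09 for HCT15 and 6.13 for COLO205, over 6, 16, 41 unscaled and 39 reads. HCT15 had a second peak in that region, with a fold of 5.91. It was the single region of 4 lists that HCT15 held and COLO320DM did not. Other named peaks were in fewer lists: GL000227 at 73659 to 74039 (HT29, fold 9.44), GL000241 at 38396 to 38486 (COLO320DM, 9.14), GL000239 at 27325 to 27868 (COLO205, 9.02) and GL000242 at 24865 to 24999 (COLO205, 8.49).

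Over all contigs, 206 merged regions were found. Single-list regions numbered 130, while 36 were held by 2 lists, 30 by 3, 8 by 4 and 2 by all 5. Regions over all peaks of the lists were not counted, so whether these numbers are particular to the contigs cannot be told. Of the 30 regions in 3 lists, 14 were on GL000220, all in its paired stretches, where a position and its partner count as separate regions. Without HCT15, 9 regions were common to the remaining lists.

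Contig peaks were then set against peaks on chromosomes 1 to 22, X and Y of the same list, with the line as the unit. Their median width was smaller in 5 of 5 lines, averaging 105 ± 10.2 nt on contigs and 122 ± 6.28 nt on chromosomes (SD, n = 5 lines). An exact two-sided sign-flip permutation test gave p = 0.0625, the smallest that 5 lines allow, and p = 0.167 adjusted over the 4 measures compared. Their median fold averaged 4.62 ± 0.805 on contigs and 5.49 ± 0.291 on chromosomes, lower in 4 of 5 lines (exact permutation p = 0.125, adjusted 0.167). HCT15 was the exception, with 5.86 on contigs and 5.72 on chromosomes. Input covered 66.0 ± 11.997% of contig peaks and 46.1 ± 17.0% of chromosome peaks, more in 4 of 5 lines (exact permutation p = 0.188, adjusted 0.188). COLO320DM went the other way, with 50.6% and 62.2%. Median IP reads averaged 20.7 ± 10.03 on contigs and 11.6 ± 3.91 on chromosomes, higher in 4 of 5 lines (exact permutation p = 0.125, adjusted 0.167). None of the 4 differences passed 0.05, which this design cannot reach.

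Without GL000220 and the mitochondrial genome, an alternative chosen after seeing the data, the width difference grew to −27.1 ± 9.05 nt and kept its sign in 5 of 5 lines, while input coverage was higher in 3 lines and lower in 2 (exact permutation p = 0.0625 and 0.5625, adjusted 0.25 and 0.625). The fold difference shrank to −0.48 ± 0.505, lower in 4 of 5 lines (exact permutation p = 0.125, adjusted 0.25). The IP-read difference shrank to 3.2 ± 9.42, higher in 3 of 5 lines (exact permutation p = 0.625, adjusted 0.625).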

How the data were processed

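The 5 m6A IP peak lists (1 per line) were analysed, and inputs entered only through the background they hold. Per the submitters' processing notes, cutadapt, FastQC, BWA, MACS2 and hg19 were used; versions and parameters are not given in the sources used here. The authors' deposited columns are a fold (a ratio of summit to local background), a −log10 p, a −log10 q and a score; summit offsets are positions. Coordinates count from 1.

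IP reads and background were recovered per peak from the fold, taken as (reads + 1) / (background + 1), and the Poisson −log10 p. Every peak matched within 0.001; in HCT15 each IP read counted as 0.322. Taking the background as the line's input, the shortest peak as fragment length and a genome of 2.7 Gb gave the depths. On simulated peaks the recovery returned the reads of 100% of 1255 peaks without scaling and 841 with scaling. Peaks were shared when they overlapped by 1 nt or more, and the intervals on shares are 95% Clopper-Pearson intervals. Contig and chromosome peaks were compared over lines by an exact two-sided sign-flip permutation test, with Benjamini-Hochberg adjustment over 4 measures.

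Named positions are contigs with 5 or more peaks in a list, the 3 highest −log10 p and 3 highest folds of each list, the highest −log10 p on GL000220, GL000216 and the mitochondrial contig, and regions in at least 4 lists; GL000220 pairs and peaks compared with these were chosen after their values were seen. Members and lists were chosen with earlier results of these data known. Alternatives were stricter −log10 q and fold minimums, leaving out contigs or lists, other overlap rules, a common input threshold and a pseudocount of 0. Computation ran in Python 3.11.15 with scipy 1.17.1 for tests, pandas 2.3.3 and numpy 2.4.6 for tables, and figures were drawn in matplotlib 3.10.9. Haplotype contigs were not used here.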

Additional observations from a re-analysis of the deposited data

How the results depend on the processing

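Of 105 recomputed values, 67 stayed close to the value given above and 38 moved; the cause was not tested. A share or median moved when it left the 95% interval of the value above (exact binomial, or from order statistics for a median), and a count when it changed by more than 1.5 times. With a −log10 q of at least 5, the share of the list was 0.574% (HCT116) and 0.626% (COLO320DM), and the median fold 4.82 (HCT116), 6.02 (HT29), 5.94 (COLO320DM) and 3.44 (COLO205). The median width was then 153 nt (HCT116) and 137 nt (COLO205), the input-covered share 30.0% (COLO320DM) and 93.1% (COLO205), and the overlapped share 23.3% (COLO320DM) and 43.1% (COLO205). Regions in at least 4 lists then numbered 1, and those in all lists 0. With a fold of at least 4, the share of the list was 0.423% (HCT116), 0.689% (COLO320DM) and 0.683% (COLO205). Without mitochondrial peaks it was 0.648% (HCT116). Without GL000220 and mitochondrial peaks, chosen after seeing the data, the median fold was 4.79 (HCT116), 4.96 (COLO320DM) and 4.52 (COLO205), the median width 86.5 nt (HCT116) the input-covered share 42.9% (HCT116) and 32.2% (COLO320DM) and the overlapped share 71.4% (HCT116) and 39.0% (COLO320DM). Taking the strongest peak of each contig, the median fold was 5.85 (HCT116), 5.77 (COLO320DM) and 4.60 (COLO205). One input threshold per sequenced read gave an input-covered share of 65.5% (COLO205). A reciprocal overlap of 50% gave overlapped shares of 59.0% (HCT116), 34.3% (HT29) and 48.3% (COLO205), and 6 regions in at least 4 lists. No overlapped share over all peaks is given under this rule or with a −log10 q of at least 5. Whether all peaks of a list would move alike cannot be told here.

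Leaving out each list in turn, regions held by at least 3 of the 4 remaining lists numbered 10 to 35 and those held by all 4 numbered 2 to 9. That count was 35 without HCT15, 32 without HT29 and 19 without COLO320DM, against 10 in at least 4 of 5 lists; asking for 3 lists in place of 4 is itself a looser rule. A pseudocount of 0 did not match the deposited values and gave no result. No paired analysis was possible because each line had 1 peak list and the labels carry no replicate numbers that could pair libraries between lines; contig and chromosome peaks were compared within each line. Peaks over few reads, as on GL000216 in COLO320DM, limit the precision of their folds.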
